A study of Rattus norvegicus with 14 samples.

Results

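Sperm DNA methylation of rats separated from their dam in early life was compared with that of control rats over every region that the authors' deposited table of this comparison lists. These are 1849 regions, of 8555 in the 5 tables of the series. The material was sperm of male Wistar rats, an outbred laboratory stock. Reduced representation bisulfite sequencing (RRBS) reads methylated and unmethylated cytosines at restriction fragments rich in CpG. The early-life stress group (ELS, 4 libraries) was taken from the dam for 3 h a day over 16 days from postnatal day 1, took an elevated plus maze test at postnatal day 57 ± 1 and stayed on standard chow at the diet split on postnatal day 60. Controls (3 libraries) remained with the dam and had the same test and chow. A pair of further groups, separated males on a high-fat diet (ELS-HFD, 3 libraries) and unseparated males on that diet (HFD, 4 libraries), served as a second comparison of separation. The labels name no allele, litter, pooling or age at sperm collection, and do not say that each library is 1 animal, so p-values measure the spread between these libraries. All coordinates of regions are on Rnor_6.0, counted from 1.

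Methylation of the male germline is erased and laid down anew before and around birth, and mature sperm carries methylation over most of its genome while CpG-dense promoters stay almost free of it. Genes imprinted through the mother are unmethylated in sperm at their control regions, genes imprinted through the father are methylated there, and germline genes that somatic cells silence keep open promoters. Early-life separation is a rodent model of stress in infancy, and sperm methylation is one of the marks studied as a possible carrier of paternal experience.

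CpG-dense promoters are where the assay reads most CpGs within the fewest bases, so the promoters of 2 genes with opposite differences are shown before the values. Both were chosen after their values were seen. The letters are RefSeq's, from assembly GRCr8, since Rnor_6.0 sequence was not used here, and run from 250 bases before to 50 bases after the gene start. Capitals mark each CG. The Srd5a3 window is chr14:32414924-32415223 on the minus strand and the Foxr1 window is chr8:53665280-53665579 on the minus strand.
Srd5a3: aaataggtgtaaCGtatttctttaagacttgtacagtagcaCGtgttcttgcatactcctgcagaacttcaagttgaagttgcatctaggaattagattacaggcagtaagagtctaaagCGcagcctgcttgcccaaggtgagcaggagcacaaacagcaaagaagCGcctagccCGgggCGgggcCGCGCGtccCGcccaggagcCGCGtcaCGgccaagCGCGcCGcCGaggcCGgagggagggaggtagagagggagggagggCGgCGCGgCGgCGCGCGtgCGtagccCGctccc
Foxr1: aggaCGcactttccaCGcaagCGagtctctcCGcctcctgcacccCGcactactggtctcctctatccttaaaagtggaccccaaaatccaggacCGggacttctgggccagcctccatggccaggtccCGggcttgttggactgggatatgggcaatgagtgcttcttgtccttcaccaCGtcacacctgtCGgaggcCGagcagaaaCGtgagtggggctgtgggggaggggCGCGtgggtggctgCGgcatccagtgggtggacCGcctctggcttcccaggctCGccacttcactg
Srd5a3 encodes the reductase that makes dolichol, the lipid carrier of N-glycosylation, and its window holds 27 CGs. The deposited region, at -28 bp from the start, spans only 14 bases with 12 CpG positions. The densest 14 bases of the GRCr8 window, CGCGgCGgCGCGCG at +20 to +33, hold 6 CGs. Whether these letters are the measured ones was not tested. The region had 1.95, 0.373, 2.88 and 1.14% methylation in the ELS libraries, against 6.50, 9.78 and 8.59% in the control libraries. Every ELS library lay below every control library, and the limma p, adjusted by the Benjamini-Hochberg method over all listed regions, was 0.0952. Foxr1 encodes a forkhead transcription factor, and its window holds 16 CGs, spread more evenly. At the Foxr1 region, -105 bp from the start, the ELS libraries had 3.63, 3.74, 1.55 and 10.9%, against 1.10, 0.609 and 0.794% in control, so that here every ELS library lay above.

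The table named 1528 genes as the nearest to its regions. Each region spans 14 to 743 bp, with a median of 106 bp, and holds 10 to 48 CpG positions. In 9 regions there are more CpG positions than 1 strand of that length could hold, as when both strands are counted. Regions were listed by the authors' caller for a difference of at least 2.5 percentage points, and 1815 of them (98.2%) have a q-value of 1. A listed region is therefore not a changed one, and shares over all listed regions describe the list. Read depth is unknown because the table gives percentages alone. The labelled cell type was checked first: 4 of 15 maternally imprinted genes were listed, Grb10, Igf2r, Zrsr1 and Gnas, and their 6 regions stayed at or below 7.26% in all ELS libraries and at or below 11.1% in all control libraries. None of the 6 paternally imprinted genes was listed in this table. Zdbf2 had 93.5 to 97.2% in the same ELS libraries in the table of ELS against ELS-HFD. Dlk1 went the other way, with 7.03 to 26.1% in the control libraries in the table of HFD against control. That Dlk1 region lay in an intron, 8631 bp from the gene start. The methylated side of the check was therefore mixed, and for control it has no highly methylated region. Dazl, an RNA-binding protein gene of germ cells, had 4.03 to 8.19% in ELS and 1.79 to 2.21% in control at its intron 1 region, low in every library. Piwil1, a PIWI protein gene of the germline, had 3 intergenic regions over 20 kb from its start, and the one starting at 31663368 was highly methylated, with 93.1 to 97.5% in ELS and 89.5 to 92.95% in control.

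One ELS library stood apart. The second ELS column held the lowest of the 7 values in 525 regions (28.4%), against 8.33 to 16.1% for the other ELS columns and 10.2 to 15.1% for the control columns. It held the highest value in 93 regions (5.03%). At the 606 regions whose midpoint between the group means was 20 to 80%, its median deviation from that midpoint was -5.58 points. The other libraries lay between -1.86 and 2.85 points. Correlations of libraries across regions were 0.970 to 0.976 within ELS, 0.957 to 0.971 between ELS and control and 0.967 to 0.974 within control, over regions that were listed for a difference between those groups. Results that rest on this library are given below with and without it.

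**Figure D1:**
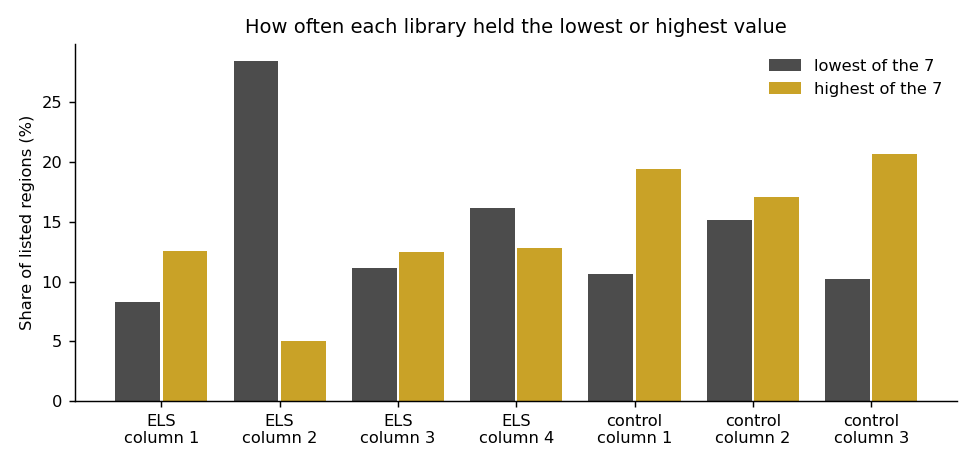
Share of the 1849 listed regions (%) in which each of the 7 library columns held the lowest value (dark bars) or the highest value (light bars), ELS columns left of control columns. The second ELS column was lowest in 28.4% and highest in 5.03% of regions.

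Most listed regions were less methylated in ELS. Of all listed regions, 1126 (60.9%) had a lower mean in ELS and 723 a higher one, with a median difference of -2.78 percentage points. Without the second ELS column the share lower in ELS was 60.6% and the median difference -2.38 points. The direction was uneven along the methylation scale. Among the 757 regions with a midpoint under 10%, 384 (50.7%) were lower in ELS. The share was 56.3% of the 224 regions at 10 to 20%, 69.8% of the 606 at 20 to 80%, 74.6% of the 114 at 80 to 90% and 73.0% of the 148 above 90%. At 20 to 80% the median difference was -5.25 points with all libraries and -3.78 points without the second ELS column. Differences of at least 10 points were found at 155 regions, 118 of them lower in ELS. None of these shares was tested, since the list was built on these libraries.

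**Figure D2:**
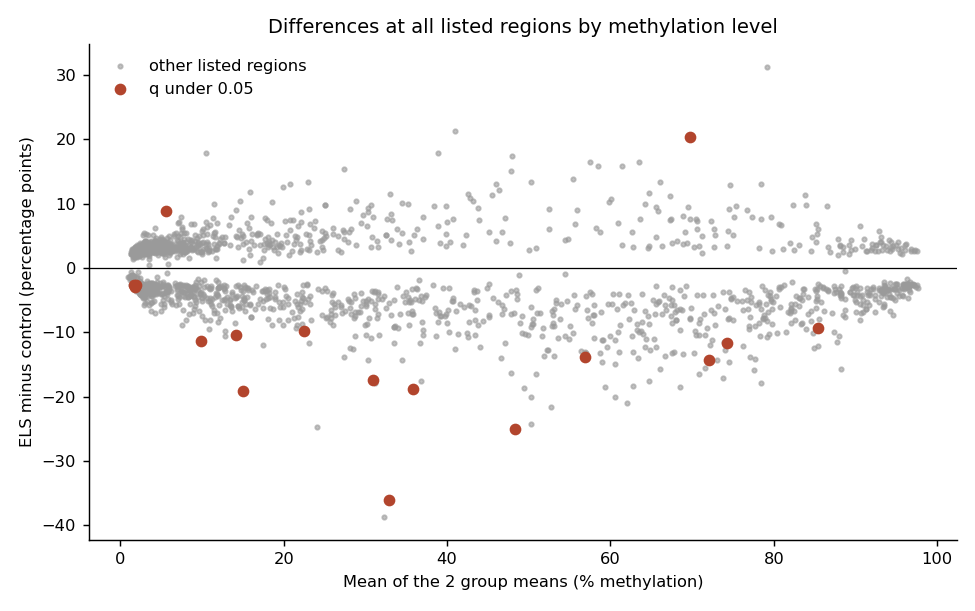
Difference of ELS minus control in percentage points (vertical axis) against the mean of both group means in percent (horizontal axis) for all 1849 listed regions, with the 17 regions at a q-value under 0.05 in colour. Regions at 20 to 80% lie mostly below the zero line, and those under 10% lie on both sides.

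By annotation, promoters leaned most to lower values: 170 of 242 promoter regions (70.2%) were lower in ELS, against 249 of 384 in introns, 41 of 63 at transcript ends, 260 of 430 in exons and 404 of 727 between genes. Promoter regions were nearly unmethylated, with a median of 2.80% in ELS and 3.67% in control, so their differences were small, with a median of -2.65 points. On chromosome X 3 of 11 regions were lower in ELS. Listed regions within 500 bp of each other formed 66 pairs, 50 of which (75.8%) had the same direction, 42 both lower and 8 both higher.

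By the q-value of the authors' deposited table, 17 regions (0.919% of those listed) were under 0.05, and these are named called regions. Methylation was lower in ELS at 15 of them (0.811% of those listed) and higher at 2 (0.108%). All 7 called intergenic regions and all 6 in introns were lower, the 4 in exons were split evenly, and no promoter region was called. The q-value comes from a test over the CpG values of a region, which does not measure the spread between libraries. Over libraries, limma passed 0 of 1849 regions (0.0%) once p-values were adjusted by the Benjamini-Hochberg method. Before adjustment 497 (26.9%) had a limma p under 0.05, of which 304 (16.4%) were lower and 193 (10.4%) higher in ELS. Without the second ELS column the majority turned, with 214 lower and 233 higher. Of the called regions 16 were among those 497. The smallest p that an exact two-sided permutation of 4 against 3 libraries allows is 0.0571. The libraries of the groups were fully apart at 15 of the 17 called regions, against 476 of all listed regions (25.7%), of which 299 (16.2%) were lower and 177 (9.57%) higher in ELS.

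**Figure D3:**
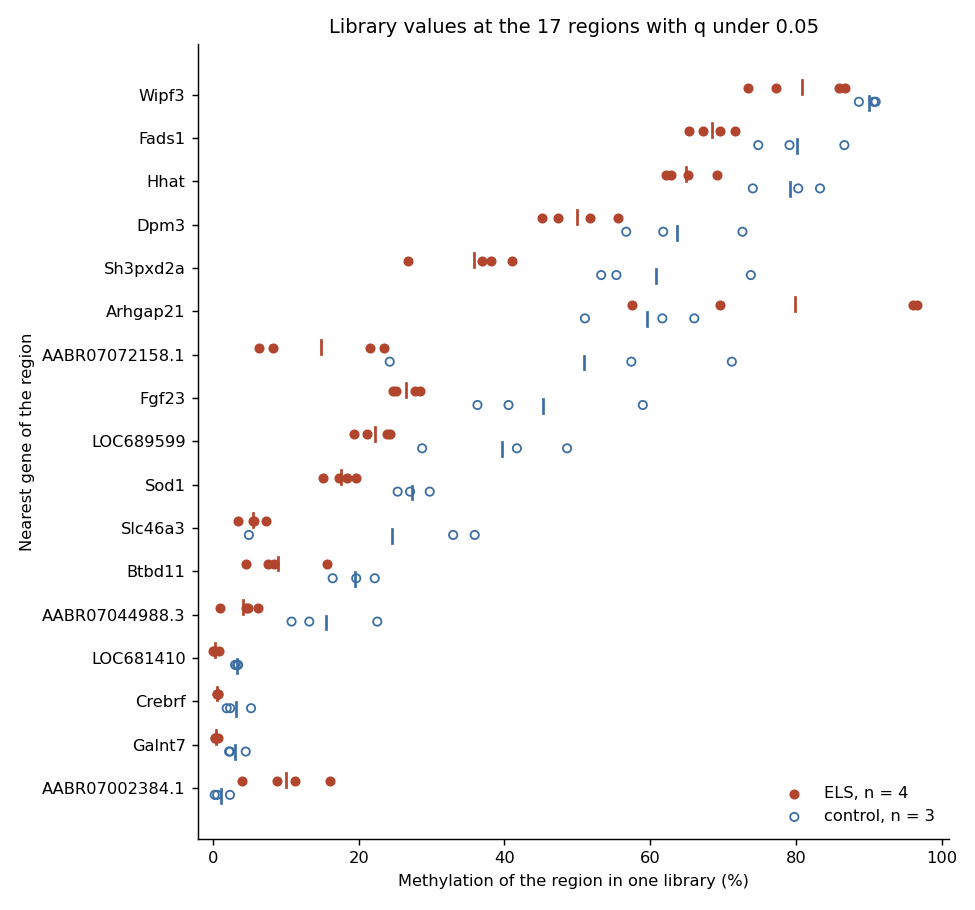
Methylation in percent of each library at the 17 called regions, with ELS libraries (n = 4, filled points) drawn above control libraries (n = 3, open points) in each line and bars at the group means. ELS points lie left of all control points in 14 lines, right of them at AABR07002384.1, and overlap them at Slc46a3 and Arhgap21.

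The largest decrease among called regions was intergenic, at chromosome 10, 70015518 to 70015619, with the unnamed gene AABR07072158.1 nearest at -59975 bp. It had 6.34, 21.6, 23.4 and 8.21% in the ELS libraries, against 57.4, 71.2 and 24.3% in control. The third control library lay just 0.83 points above the highest ELS library, while the other two lay far above. The limma adjusted p was 0.102. Sh3pxd2a, a scaffold gene of podosomes, was lower within its intron 6, with 41.1, 36.9, 38.2 and 26.8% in ELS, against 53.3, 55.3 and 73.8% in control (limma adjusted p = 0.102). Here a gap of 12.2 points separated the groups. ELS-HFD libraries had 12.9, 5.73 and 4.25% at the AABR07072158.1 region. Over most of the Sh3pxd2a region (267092836 to 267092900) they had 57.4, 31.7 and 80.5%, from within the ELS range to above control. A second Sh3pxd2a region in exon 7, less than 1 kb away, had 48.6, 32.8, 28.2 and 32.1% in ELS, against 49.6, 18.7 and 60.1% in control. These overlapped, and the difference of -7.40 points was 1.23 without the third control column.

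Slc46a3, which encodes a transporter of the lysosomal membrane, had 7.27, 3.46, 5.56 and 5.66% in ELS at a region of 38 CpG positions in intron 2, against 4.94, 33.0 and 35.9% in control. The first control library fell among the ELS libraries. The difference of -19.1 points was -28.95 points without it. Upstream of Fgf23, the gene of a bone hormone that lowers blood phosphate, the ELS libraries had 28.4, 24.7, 27.8 and 25.1%, against 40.6, 36.3 and 59.0% in control (limma adjusted p = 0.126). ELS libraries lay within 4 points of each other, and the third control library stood above the rest. Without it the difference was -11.9 points rather than -18.8. The region nearest to LOC689599, in intron 23 of another transcript on chromosome 9 (114896957 to 114897434), had 23.9, 24.4, 19.4 and 21.1% in ELS, against 41.7, 28.7 and 48.6% in control.

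The called regions nearest to Hhat, Dpm3 and Fads1 were intergenic, and that nearest to Galnt7 lay in an intron. Hhat, which attaches palmitate to Hedgehog proteins, lay -1096 bp from a region with 62.2, 65.2, 69.1 and 62.9% in ELS, against 80.3, 74.1 and 83.3% in control (limma adjusted p = 0.105). Dpm3 encodes the subunit that anchors dolichol-phosphate mannose synthase in the endoplasmic reticulum. Its region had 55.6, 45.2, 51.7 and 47.3% in ELS, against 72.6, 61.8 and 56.7% in control (limma adjusted p = 0.175), and the groups were 1.12 points apart. Fads1 encodes a desaturase of polyunsaturated fatty acids, and a region -25507 bp from its start had 67.3, 71.6, 69.6 and 65.3% in ELS, against 79.1, 74.8 and 86.6% in control. Galnt7 encodes a transferase that adds sugars to mucin-type proteins. Its region at 915 bp held less than 1% methylation in ELS, at 0.266, 0.309, 0.676 and 0.478%, against 4.51, 2.36 and 2.23% in control (limma adjusted p = 0.0952).

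Sod1, the gene of the cytosolic dismutase that clears superoxide, was lower in exon 1, 111 bp after its start. Its ELS libraries had 19.6, 17.3, 15.1 and 18.4% methylation, against 25.3, 27.0 and 29.7% in the control libraries (limma adjusted p = 0.136). Both groups were narrow, and 5.77 points separated them. Near Btbd11, a gene with BTB and ankyrin repeats, ELS libraries had 4.49, 7.55, 15.6 and 8.32%, against 16.4, 19.7 and 22.2% in control. The third ELS library came within 0.793 points of control. Wipf3, of a family of actin regulators that bind WASP, had 85.9, 77.3, 86.7 and 73.4% in intron 2 in ELS, against 88.6, 90.7 and 90.9% in control. The region near AABR07044988.3 on chromosome 20 had 4.84, 6.18, 4.60 and 0.922% in ELS, against 10.8, 22.6 and 13.2% in control. Unseparated HFD libraries had 2.52, 10.8, 4.84 and 6.41% over the same interval.

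A further pair of called regions sat near gene starts at almost no methylation. Crebrf, which encodes a regulator of CREB-family transcription factors, had 0.637, 0.499, 0.672 and 0.579% in ELS over 24 CpG positions of intron 1, against 1.89, 5.24 and 2.37% in control. The ELS libraries lay close together, and without the control library at 5.24% the difference was -1.53 points rather than -2.57. LOC681410 had 0.238, 0, 0.179 and 0.819% in ELS in exon 1, against 3.05, 3.46 and 3.33% in control (limma adjusted p = 0.0952). From the library values the difference was -2.97 points, whereas the authors' deposited table gives -5.34 points for it. Unseparated HFD libraries were low at LOC681410 too, with 0.433, 0.413, 0.455 and 0% over an overlapping interval (6910064 to 6910120). That was not so at every called region. At Hhat the HFD libraries ran from 59.7 to 85.5%, from below ELS to above control.

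The 2 called increases differed in kind. At exon 1 of LOC100911196, nearest to AABR07002384.1 on chromosome 1 (72363443 to 72363751), the ELS libraries had 3.95, 11.2, 8.80 and 16.0%, against 2.34, 0.256 and 0.588% in control. The groups were apart by 1.61 points, and the log2 odds difference was 2.55 ± 0.52 (SE, n = 4 and 3, limma adjusted p = 0.0952). At the region assigned to Arhgap21, a gene of a GTPase-activating protein 203707 bp away, ELS libraries had 96.6, 96.0, 57.5 and 69.6%, against 51.0, 66.0 and 61.7% in control, so the third ELS library fell inside the control range. A neighbouring region of the same exon that was not called likewise had the third ELS library inside the control range, with 79.6, 83.8, 57.3 and 70.4% in ELS, against 54.1, 61.2 and 63.1% in control. Adjusted limma p-values of the 17 called regions ran from 0.0952 to 0.207. Just outside the threshold, with no test read from it, Kazn had a q-value of 0.0521 and the region near AABR07024757.1 one of 0.119, while AABR07072158.1 was just inside at 0.0341.

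Among regions that were not called, several held wider gaps between the groups than most called ones. Cbx6 encodes a chromobox protein of Polycomb repressive complexes, which bind methylated histone tails. Its exon 5 region (chromosome 7, 121052855 to 121053038) had 48.8, 32.8, 51.8 and 34.2% in ELS, against 68.5, 58.5 and 63.7% in control, a difference of -21.7 points (limma adjusted p = 0.112). The other 3 listed Cbx6 regions, 2 beside it and 1 upstream, had lower means in ELS too, with differences of -11.1 to -17.1 points, and their libraries overlapped. The upstream difference of -17.1 points was -11.4 points without the second ELS column, and that of the region starting at 121052795 was -8.36 rather than -13.3 without the third control column. Ggnbp1, which encodes a binding partner of the testis protein gametogenetin, had 56.0, 50.5, 45.8 and 48.2% at its nearest intergenic region in ELS, against 71.4, 66.0 and 68.3% in control. Lgmn, the lysosomal protease legumain, had 23.5, 29.9, 36.7 and 22.0% in ELS, against 52.9, 39.8 and 44.0% in control at a region 68595 bp from its start. Further Lgmn regions, starting at 126258182 and 126320556, differed by -3.52 and 2.54 points. The latter was -0.0988 without the fourth ELS column. The regions nearest to AABR07006860.1 and Fam83g differed by -18.4 and -18.3 points, with gaps under 1 point between the groups.

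Of the increases without overlap, the widest gap was intergenic near AABR07024757.1 on chromosome 16 (14837487 to 14837626). This region had 54.8, 53.0, 45.3 and 53.3% in ELS, against 30.7, 31.5 and 28.7% in control, a gap of 13.9 points (limma adjusted p = 0.0952). Pipox encodes the peroxisomal oxidase of pipecolic acid and sarcosine. Its nearest region, in intron 44 of another transcript, had 33.9, 36.1, 30.2 and 40.3% in ELS, against 16.7, 24.4 and 18.0% in control. AABR07064983.2 had 27.3, 31.0, 28.8 and 31.6% in ELS at its transcript end, against 17.3, 15.2 and 16.2% in control, with narrow groups 10.03 points apart. The regions near Unc119b, which carries lipid-modified proteins to cilia, and LOC499240 were higher by 13.3 and 13.0 points, and the Unc119b difference was 5.91 points without the fourth ELS column. Larger mean differences existed where libraries overlapped. Pag1, a membrane adaptor gene, had 5.92, 36.9, 4.01 and 4.86% in ELS, against 4.69, 52.6 and 97.7% in control, so both groups mixed low and high libraries.

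Promoter regions were then described as a group, with genes named after their values were seen. Of the 242 promoter regions 80 had libraries fully apart, 55 lower and 25 higher in ELS, against 25.7% apart, 16.2% lower and 9.57% higher over all listed regions. Most promoter regions had low methylation. Among all 757 regions with a midpoint under 10%, 271 had libraries apart, 150 lower and 121 higher in ELS. The count of promoters apart is therefore not read as particular to promoters. Kat6a, a histone acetyltransferase gene, was listed at 0 in all 4 ELS libraries, against 3.81, 11.7 and 1.67% in control. Ring1, a ubiquitin ligase of Polycomb complexes, had 28.8, 30.8, 27.2 and 29.4% in ELS, against 35.1, 38.4 and 40.8% in control. Hr, a corepressor of nuclear receptors, was highly methylated in both groups, with 93.9, 89.9, 90.2 and 88.9% in ELS, against 96.3, 97.8 and 94.9% in control. In each of these 3 promoters every ELS library lay below every control library. Dnajc11, a mitochondrial membrane organiser, had 46.2, 51.5, 61.5 and 59.0% in ELS, against 65.3, 68.0 and 69.3% in control. Dnal4, a dynein light chain gene, had 11.8, 10.7, 11.7 and 8.81% in ELS, against 0.333, 9.93 and 0.370% in control, so its second control library lay among the ELS libraries.

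RefSeq promoter windows of GRCr8 were matched by symbol for 161 of the 233 genes with a promoter region. Promoters with a region lower in ELS held a median of 24.0 CGs in 300 bases, those with a higher region 23.5, and the 27457 windows of all genes 7.0. The ratio of observed to expected CG was 0.806 and 0.790 at listed promoters, against 0.417 over all. CCGG, the 4-letter site that reads the same on both strands and is cut by the usual RRBS enzyme, was present in 94.6% and 94.0% of these windows, against 53.0% of all. Values of promoters with lower and with higher regions were close in each feature, and no test was made of them.

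The gene lists were read by counts and medians beside those of all listed regions, 60.9% of which were lower in ELS with a median of -2.78 points. Libraries were apart at 25.7% of all listed regions, 16.2% lower and 9.57% higher in ELS, and each list's count of regions apart is to be read against these shares. None of the lists was tested. Among 14 regions near stress hormone and neurotrophin genes, 12 were lower in ELS, with a median of -3.24 points, and 3 had libraries fully apart, all lower, a share near or below the 25.7% of all regions. Crebrf was the only called one. Sstr2, a receptor of the inhibitory peptide somatostatin, had 47.6, 49.7, 57.5 and 46.7% in ELS upstream of its start, against 67.6, 58.0 and 55.6% in control. Nr3c2, the mineralocorticoid receptor, had 0.806, 0.910, 1.29 and 0% in ELS at -5686 bp, against 1.80, 10.3 and 2.68% in control, apart by 0.51 points. The Nr3c2 difference of -4.19 points was -1.49 without the second control column. Nr3c1, the glucocorticoid receptor, had a single region 78050 bp away, with 8.06, 2.19, 9.70 and 5.67% in ELS, against 9.63, 16.2 and 6.40% in control. The Nr3c1 groups overlapped, and the difference of -4.34 points was -1.61 without the second control column. Ngfr, the neurotrophin receptor shared by all neurotrophins, had 57.03, 36.7, 48.7 and 52.1% in ELS, against 58.9, 49.6 and 63.1% in control. A second Ngfr region, starting at 83418541, was 3.52 points higher in ELS with overlap, and 0.425 points higher without the first ELS column. The first of these differences, -8.55 points, was -4.57 without the second ELS column.

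Chromatin regulators had 18 regions, 14 lower in ELS, with a median of -2.76 points. The 6 with libraries apart (25.7% over all regions) were all lower, and Cbx6 made up 4 of the 18. Glycosylation genes had 14 regions, 12 lower, with a median of -3.28 points, and included the called Dpm3 and Galnt7. Galnt17, another transferase of mucin-type sugars, had 15.1, 14.3, 16.2 and 26.2% in ELS, against 41.2, 20.2 and 18.3% in control. The Galnt17 groups overlapped, and the difference of -8.63 points was -1.34 without the first control column. B4galt6, which makes lactosylceramide, had 19.9, 16.5, 19.4 and 19.6% in ELS, against 22.0, 23.9 and 26.1% in control, with every ELS library below control.

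Insulin and lipid metabolism genes showed the reverse balance, with 6 of 14 regions lower and 8 higher in ELS and a median of 2.21 points. Libraries were apart at 8 of them (25.7% over all regions), 4 in each direction (16.2% lower and 9.57% higher over all), and the called Fgf23 and Fads1 were among the lower ones. Irs1, the docking protein of the insulin receptor, had 19.1, 11.1, 17.1 and 18.5% in its exon 1 in ELS, against 6.45, 8.69 and 4.20% in control (limma adjusted p = 0.0952). Igfbp6, a binding protein of insulin-like growth factors, had 33.3, 31.5, 30.9 and 33.0% in ELS, against 35.3, 40.2 and 36.9% in control. Solute carrier genes were also balanced, with 12 of 26 regions lower and 14 higher, and 7 of their 9 regions with libraries apart were higher in ELS, against 177 of 476 over all listed regions. Slc5a8, a monocarboxylate transporter, had 70.0, 68.3, 62.2 and 44.5% in ELS, against 80.4, 73.7 and 68.6% in control.

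Homeobox and patterning factors formed the longest list, with 54 regions at 42 genes, of which 32 were lower and 22 higher in ELS. Tbx3, a T-box factor of limb and mammary development, had 4 adjacent regions in exon 7, all lower. At the strongest (chromosome 12, 42483544 to 42483631) the ELS libraries had 60.0, 60.9, 64.6 and 69.2%, against 77.1, 78.6 and 75.0% in control, 5.804 points apart (limma adjusted p = 0.126). The 3 regions around it differed by -4.75 to -7.00 points, and the smallest became -3.02 points without the second control column. Gbx1, a homeobox factor of the spinal cord, had regions of opposite direction. Its exon 1 had 0.127, 0, 0.694 and 0.256% in ELS, against 3.24, 5.05 and 1.20% in control, whereas its exon 2 had 68.1, 20.9, 2.88 and 17.4% in ELS, against 37.4, 1.00 and 4.32% in control. The exon 2 difference of 13.1 points rested on the first ELS library and was -0.516 points without it. Foxn4, a forkhead factor of retinal cells, had 56.0, 50.2, 54.6 and 57.8% at an intergenic region in ELS, against 59.3, 67.7 and 68.7% in control.

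Ion channel and receptor genes had 34 regions, 18 lower and 16 higher in ELS. Kcng1, a modulatory potassium channel subunit, had 36.4, 36.4, 42.3 and 43.6% in exon 3 in ELS, against 54.9, 50.3 and 62.6% in control (limma adjusted p = 0.126). Its other 2 regions differed by -10.4 and -5.90 points with overlap, and the -5.90 was -9.06 without the second control column and -3.82 without the third control column. Axon guidance and adhesion genes had 14 regions, of which 6 were lower in ELS and 1 had libraries apart. Among 6 Wnt pathway regions 3 were lower, and Tcf7l2, a transcription factor at the end of that pathway, had 8.65, 5.29, 9.86 and 3.86% in intron 1 in ELS, against 14.4, 19.3 and 11.5% in control. A second Tcf7l2 region 42 bp on was 2.13 points higher in ELS, with overlap, and this difference was 0.578 without the third ELS column, 0.893 without the second control column and 3.37 without the second ELS column. Zinc finger genes had 27 of 45 regions lower in ELS, and small GTPases with their regulators 17 of 30. Zbtb47 was higher in exon 1, with 71.3, 71.0, 69.2 and 70.9% in ELS, against 65.4, 49.6 and 61.8% in control. This difference of 11.6 points was 6.96 without the second control column. Further Zbtb47 regions, starting at 130402098 and 130399529, differed by 5.33 and -3.18 points, so 1 of them went the other way.

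Imprinted genes had 9 regions, 6 lower and 3 higher in ELS, all at low levels. The 3 with libraries apart (25.7% over all regions) were higher in ELS (9.57% over all): Zrsr1, a gene related to splicing factors, had 4.90, 6.71, 3.12 and 6.16% in ELS, against 1.02, 2.49 and 1.12% in control. Gnas, the gene of the stimulatory G protein, had 7.26, 2.19, 2.85 and 4.35% in ELS, against 0.844, 1.70 and 0.889% in control at the first of 2 regions in intron 2, and lower values in ELS at the second. Igf2r, the receptor that clears insulin-like growth factor, had 1.20, 1.65, 2.26 and 4.51% in ELS, against 0, 0.758 and 0% in control. Germline genes had 4 regions, at Piwil1 and Dazl, of which 3 had libraries apart and higher in ELS, and 1 of those 3 is the highly methylated Piwil1 region. Dazl had 5.12, 8.19, 4.03 and 7.16% in ELS, against 2.21, 2.05 and 1.79% in control (limma adjusted p = 0.0952). The part that other cells in the samples may have in the values of the imprinted genes and Dazl was not tested.

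Small RNA genes with many copies were named most often as the nearest gene, mostly at a distance, and which copy is meant cannot be told from the name. The 5.8S ribosomal RNA name was nearest to 37 regions, 30 of them lower in ELS, with a median of -4.41 points. Of these, 14 lay within 1 kb of the annotated copy. U6 was nearest to 30 regions, 19 lower, and 7SK to 18, 10 lower, with 1 and 0 of them within 1 kb. The 5S ribosomal RNA name was nearest to 7 regions and U1 to 6, with 3 lower in ELS for each. Leaving out 5.8S, U6 and 7SK, 60.5% of the remaining regions were lower in ELS, and all 17 called regions remained. Among single genes Vbp1, a prefoldin subunit, had 6 regions on chromosome 1, each with a higher mean in ELS, by 2.25 to 6.05 points, with libraries apart at 1. The smallest of these differences was -0.607 points without the fourth ELS column. Other genes had regions of both directions. Mn1 had 5 regions, 3 lower and 2 higher in ELS, and RGD1359127 had 4, 2 lower and 2 higher, with overlap of libraries at each. Pheta1, an endosomal adaptor gene, had 4 adjacent regions around its start, all with lower means in ELS, with differences of -5.25 to -12.5 points and overlap at each. Without the first control column the region starting at 40226832 had a difference of 0.937 points instead of -7.82, and the ends of this range, -12.5 and -5.25, became -6.42 and -1.43. Without the third control column the -5.25 became -10.2.

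Separation was compared a second time between the groups fed the high-fat diet, with ELS-HFD set against HFD, and these libraries were not used to list the regions above. The table of that comparison lists 1653 regions, 73.9% of them lower in ELS-HFD and 7 (0.423%) at a q-value under 0.05, and limma passed 0 of them after adjustment (0.0%), with 416 (25.2%) at an unadjusted p under 0.05. Its regions overlapped those of ELS against control in 463 pairs, over 446 regions. Of these pairs 323 (69.8%) had the same direction. Of 307 pairs lower in ELS, 247 (80.5%) were lower in ELS-HFD too, against 70.6% lower in ELS-HFD among all pairs. Of 156 pairs higher in ELS, 76 (48.7%) were higher in ELS-HFD, against 29.4% of all pairs. At the 306 pairs that share at least 50% of both regions, 72.2% had the same direction, and the differences had a Pearson correlation of 0.546 across regions, given as a description because regions share libraries and were listed for a difference in both tables.

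**Figure D4:**
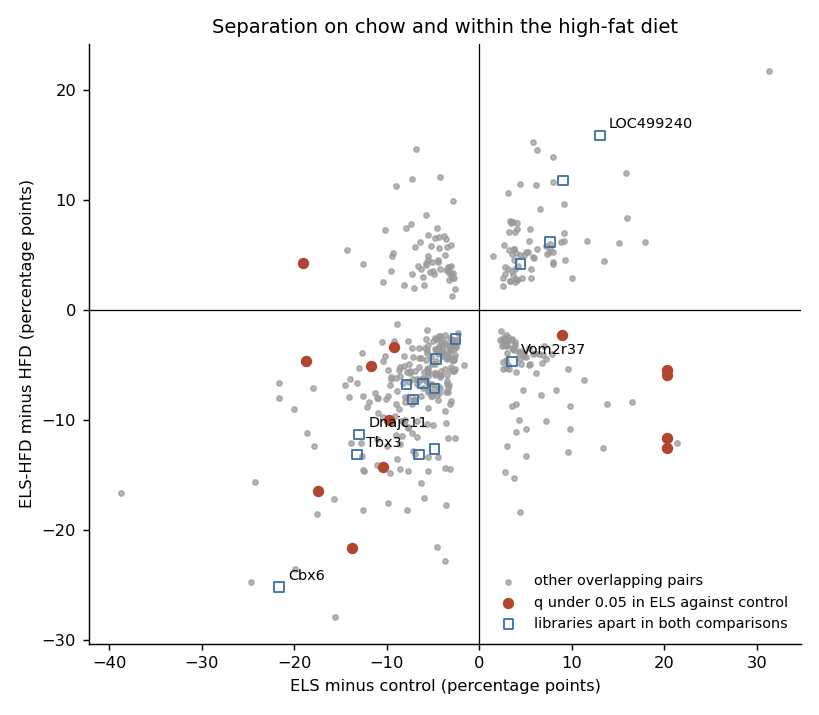
Difference of ELS minus control (horizontal axis) against ELS-HFD minus HFD (vertical axis), both in percentage points, for 463 overlapping pairs of regions from tables that share no library. Called regions are filled in colour and pairs with libraries apart in both comparisons are open squares; 15 of those 16 squares lie where both differences have the same sign.

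The called regions had 13 such pairs over 10 regions. At 8 pairs lower in ELS, 7 were lower in ELS-HFD. Btbd11 had 2.07, 10.1 and 0.871% in ELS-HFD, against 6.17, 23.5, 27.0 and 17.8% in HFD (limma adjusted p = 0.167). LOC689599 had 22.8, 21.8 and 30.2% in ELS-HFD, against 36.1, 29.6, 55.0 and 44.8% in HFD (limma adjusted p = 0.186). Dpm3 had 50.6, 23.5 and 38.2% in ELS-HFD, against 57.8, 40.4, 65.3 and 72.5% in HFD, which overlapped. Sod1 was far more variable on this diet, with 3.13, 17.2 and 2.28% in ELS-HFD, against 18.8, 1.82, 31.7 and 17.8% in HFD. Fads1, Wipf3 and Fgf23 differed by -5.11, -3.32 and -4.65 points with overlap. Slc46a3 had the opposite sign, with 5.26, 30.6 and 2.65% in ELS-HFD, against 25.2, 1.97, 3.09 and 3.70% in HFD, so 1 library of each group was high. Neither called increase was higher in ELS-HFD than in HFD at the intervals that overlapped it, but these covered the called regions only in part. The interval at AABR07002384.1 shares just 15 bp with the called 309 bp. It had 0.659, 1.30 and 1.77% in ELS-HFD, against 2.76, 0.308, 7.03 and 4.06% in HFD. All 4 overlapping Arhgap21 regions were lower in ELS-HFD, and each shares 16 to 96 bp with the called 417 bp. The comparison of ELS against ELS-HFD, which holds no HFD libraries, has intervals that cover both called increases in full. ELS-HFD libraries had 2.41, 2.53 and 1.21% at AABR07002384.1 (72363417 to 72363751), below every ELS library of the called region. At Arhgap21 (87622291 to 87622922) they had 70.2, 48.4 and 60.9%.

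Of the 463 overlapping pairs, 94 had libraries fully apart in ELS against control. Of these 94, 16 pairs over 15 regions were also fully apart in ELS-HFD against HFD. Among all listed regions 25.7% were apart in ELS against control and 23.9% in ELS-HFD against HFD. The share of 16 in 94 lies below that 23.9%, which is over all 1653 regions of that comparison and not over the overlapping pairs. Whether being apart in both was more frequent than these shares give was not tested. Both Tbx3 regions among the 16 pairs were paired with 1 and the same interval of the high-fat diet comparison. Differences at 15 of the 16 had the same sign. Cbx6 was among them: its exon 5 had 32.3, 38.9 and 18.1% in ELS-HFD, against 62.1, 56.0, 51.5 and 50.3% in HFD (limma adjusted p = 0.159). Tbx3 had 67.5, 68.1 and 62.4% in ELS-HFD, against 74.1, 79.6, 78.3 and 84.6% in HFD (limma adjusted p = 0.172). In these single regions every ELS and ELS-HFD library lay below every library of its unseparated group, whereas libraries of ELS and control overlapped at 3 of the 4 Cbx6 regions and 2 of the 4 Tbx3 regions. Rhobtb1, an atypical small GTPase gene, had 9.92, 11.3, 9.41 and 11.0% in exon 7 in ELS, against 18.2, 13.9 and 13.7% in control. On the high-fat diet the same exon had 9.94, 3.78 and 6.37% in ELS-HFD, against 17.4, 19.01, 16.0 and 24.9% in HFD (limma adjusted p = 0.156). A second listed Rhobtb1 region, in exon 1, was 1.80 points higher in ELS with overlap, and 0.587 points higher without the fourth ELS column. The Dnajc11 promoter had 44.7, 47.1 and 53.8% in ELS-HFD, against 66.9, 57.1, 61.0 and 54.3% in HFD.

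Increases shared by both comparisons were fewer. LOC499240 had 96.0, 83.2, 83.5 and 77.0% in ELS, against 72.1, 71.1 and 72.5% in control, and 82.8, 80.6 and 82.8% in ELS-HFD, against 62.8, 74.8, 52.7 and 74.3% in HFD. LOC102549408 had 22.3, 17.1, 20.3 and 14.9% in ELS, against 7.91, 10.1 and 10.9% in control, and 18.6, 19.1 and 35.4% in ELS-HFD, against 9.22, 12.5, 16.9 and 11.6% in HFD. The others were nearest to Slc7a10, a transporter of small neutral amino acids, and to AABR07061530.1. A second listed Slc7a10 region, starting at 91402826, was lower in ELS by -5.56 points with overlap, and by -3.02 without the second control column. The pair with opposite signs was in Vom2r37, of the large family of vomeronasal receptor genes. The remaining regions lower in both comparisons were nearest to Aprt, Armc12, Eif4g3, AABR07034923.1 and LOC685501. No region of either comparison passed limma after adjustment, so none of these 15 regions is a call over libraries.

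**Figure D5:**
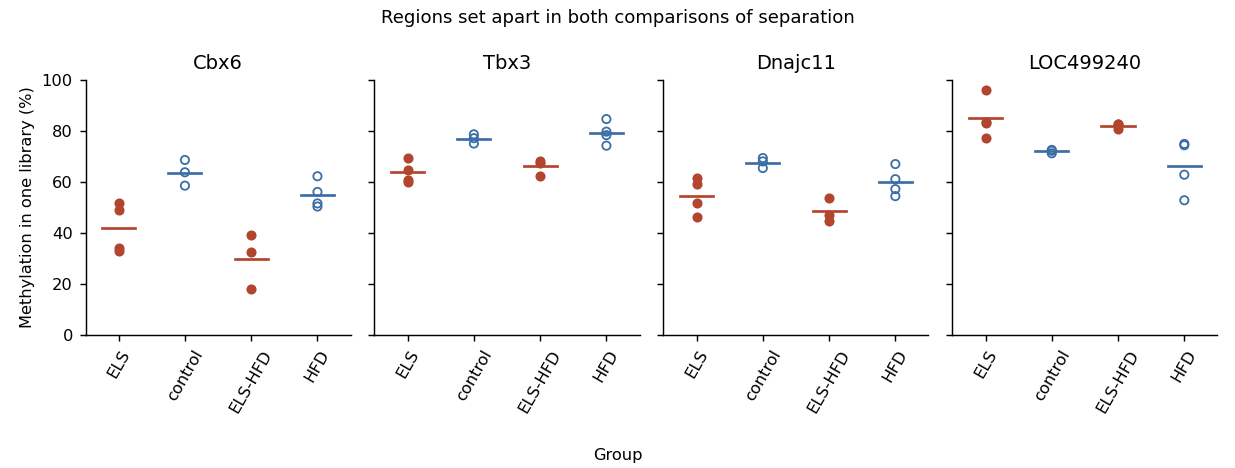
Methylation in percent of each library, by group (ELS, control, ELS-HFD, HFD), at Cbx6, Tbx3, Dnajc11 and LOC499240. These were picked, with values in view, from the 15 regions whose libraries were apart in both comparisons of separation. Points are libraries (4, 3, 3 and 4 a group) and bars are group means. In each panel drawn ELS and ELS-HFD lie on the same side of their own unseparated group. Vom2r37, with opposite signs in the comparisons, is not drawn.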

How the data were processed

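Sperm DNA of 14 rat libraries was assayed by RRBS. The series' design text speaks of amygdala RNA, while the labels and tables are of sperm DNA, and these were followed. Per the submitters' processing notes, Trim Galore, Bismark and Bowtie were used on Rnor_6.0, without versions. Regions are in the layout of the caller metilene, per the file headers, and its settings are not given in the sources used here. The authors deposited methylation in percent per library, a signed difference of group means in percentage points (a score that can be negative), p-values and q-values of the caller, and a count of CpG positions per region. Contexts and nearest genes were taken as the authors deposited them. Letters and numbers of columns tied each table code to a group. No column carries a replicate number.

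Differences were recomputed from the library columns as ELS minus control. They depart from the deposited difference by over 0.01 points in 620 regions and by up to 7.64 points, with another sign in 1. limma 3.58.1 in R 4.3.3 was fitted, without covariates, to log2((percent + 1) / (100 - percent + 1)) of all 1849 regions, with Benjamini-Hochberg adjustment, and likewise to the 1653 regions of ELS-HFD against HFD. It was tested on simulated data first. Because regions were listed for a difference in these libraries, limma p-values and counts of groups apart are biased towards a difference. Overlap means at least 1 shared base. Alternatives were other offsets and scales, stricter thresholds and leaving out each column. Depth is unknown, so no counting error is given.

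Members and gene lists were chosen with earlier results of these data known. Named regions are all called ones, the 5 largest decreases and 5 largest increases without overlap of libraries, up to 4 regions per list with the largest difference, the 5 genes with most regions, and imprinted and germline genes. Not every region the rule takes is described. Chosen outside this rule, with values in view, were Srd5a3, Foxr1, Pag1, Kazn, Pheta1, Mn1, RGD1359127, the promoter genes and the genes described for both diets. So were the second regions of Sh3pxd2a and Tcf7l2 and the further regions of Lgmn and Zbtb47.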

Additional observations from a re-analysis of the deposited data

Results flagged for a closer look

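In 6 of 116 regions tested, 1 ELS library lay far from the other 3 of its group, and chance gives such a gap in about 1 of 20 groups. At the Kcnk9 promoter (chromosome 7, start 113938245), a potassium channel gene imprinted in mouse, 1 ELS library had 0.535% and the others were listed at 0. Near Galnt17 (chromosome 12, start 29292771) 1 ELS library had 26.2%, against 14.3 to 16.2% in the other ELS libraries. Near B4galt6 (chromosome 18, start 15506323) the second ELS column had 16.5%, against 19.4 to 19.9% in the others. Near Vbp1 (chromosome 1, start 148450073) the fourth ELS column had 12.7%, against 1.08 to 1.55%. Near Eif4g3, a translation initiation scaffold gene on chromosome 5, 1 ELS library had 0.773%, against 0.420 to 0.471%, at the region starting at 156344116. At its intron 1 region (start 156400589) 1 ELS library had 93.4%, against 95.8 to 95.9%.

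Vom2r37, a vomeronasal receptor gene on chromosome 1, moved in opposite directions in the comparisons of separation. It differed by 3.52 percentage points between ELS and control, with 90.1, 89.4, 91.0 and 89.1% in ELS, against 87.2, 86.0 and 85.9% in control. It differed by -4.67 points between ELS-HFD and HFD, with 85.9, 84.9 and 82.0% in ELS-HFD, against 88.6, 90.7, 89.1 and 87.4% in HFD. The difference between these effects was not tested.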

How the results depend on the processing

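Of 17 called regions, 11 remained at a q-value under 0.01, 6 with at least 20 CpG positions and 11 with a difference of at least 10 points. The share of listed regions lower in ELS was 60.9% and became 66.7% with at least 20 CpG positions and 76.1% at 10 points or more. Leaving out 1 library column at a time it ran from 59.5 to 61.3%. limma with adjusted p passed 0 regions, but 2 with an offset of 0.5 (Aff1 and Hdhd5, both lower in ELS, adjusted p = 0.0475) and 0 to 4 without 1 column (4 without the first control column, 2 without the second). Unadjusted limma counts of 497 became 304 on the percent scale and 385 to 454 without 1 column. The part of them lower in ELS was 61.2%, 73.0% on the percent scale and 65.7% with an offset of 5. It ran from 47.9 to 67.2% without 1 column, and 47.9% is the value without the second ELS column (214 lower, 233 higher), so that majority reversed. Groups were apart in 476 regions, in 218 with a gap of at least 1 point, and in 604 to 730 without 1 column, where fewer libraries make separation easier by construction. The share of pairs with the same direction in both diets was 68.5 to 70.2% without 1 column. Every called region kept its sign in each of these settings. The cause of the other changes was not tested. No paired analysis was possible because the table columns carry no replicate numbers, so the planned replicate block was not run. The lower part among unadjusted counts, the diet pairs without 1 column and the leaving out of 5.8S, U6 and 7SK regions were alternatives chosen after seeing the data.

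Depth is unknown, 3 control libraries decide the sizes of several differences, and the lone control library above the rest at Fgf23, Crebrf and the Cbx6 region starting at 121052795 moved each by over 1.5 times.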

Other observations

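A few regions outside the lists stood out after their values were seen. In exon 1 of Aff1, the gene of a scaffold of the super elongation complex, the ELS libraries had 0.205, 0.364, 0.563 and 0.567% methylation, against 6.83, 4.27 and 10.4% in control. In exon 1 of Hdhd5 all ELS libraries were listed at 0, against 3.16, 1.33 and 3.33% in control. Both were fully apart, and neither passed limma at the offset of 1. The largest mean increase of the whole list, in intron 2 of Lmntd1, had 88.2, 97.9, 96.1 and 97.4% in ELS, against 89.3, 52.0 and 49.4% in control. The first control library lay among the ELS libraries there. The Lmntd1 gene name is also nearest to a second region, at -35 bp from its start, with 8.02, 1.26, 5.25 and 7.16% in ELS, against 0.758, 0 and 0% in control.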
